A study of Sus scrofa with 10 samples.

Results

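Among 25880 genes measured in pig tissues, 6 genes best known from nerve cells were followed: CCK, PCP4, STMN2, CPLX1, SYN1 and MT3. They were selected on their own measured levels, as nervous system genes that reached 10 FPKM in at least 1 single tissue, so their high levels are a description and not a finding. FPKM is a fragment count scaled for transcript length and for library size. Each symbol matched exactly 1 gene of the table. The samples were taken at 60 days of age from Northeast Min pigs, a domestic breed, with no treatment named and with the number of animals not given in the sources used here. There was 1 library each for heart, liver, spleen, lung, kidney, psoas major muscle, longissimus dorsi muscle, subcutaneous adipose tissue and ovary, and 1 library for a pool whose label names 7 tissues, namely all of these except adipose tissue, with the muscles given as 1. No tissue had a replicate, so no difference between tissues has an error or a p-value.

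These genes belong to different steps of nerve cell function. A neuron packs neurotransmitters and neuropeptides into vesicles, holds the vesicles near the membrane on a scaffold, and releases them through SNARE proteins when calcium enters. Calmodulin carries calcium signals to kinases and other enzymes. Peripheral organs contain few nerve cell bodies, because the neurons that supply them lie mostly in ganglia or the spinal cord. Several nerve-linked genes are nevertheless also used by muscle, epithelial, endocrine and germ cells.

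The tissue labels were checked first. Of 64 matched marker genes, 63 were highest in the tissue they mark, the exception being the ovarian gene FOXL2, which was listed at 0 in all libraries. Of 6 ventricular markers, 4 were highest in heart, namely MYL3 (8244 FPKM), MYL2 (3664), NPPB (21.5) and IRX4 (4.01). HEY2 was highest in ovary (17.3, with 9.59 in heart) and KCNJ2 in longissimus dorsi (6.64, with 0.442 in heart). MYL3 and MYL2 were also at 961 and 620 in psoas major. Of 8 matched atrial markers 4 were at 0 in heart, among them SLN and BMP10, and MYL4 was highest of them at 10.6. Over all genes, 10097 of 25880 were at 0 in heart. The atrial markers NPPA and MYL7 were not matched. The pool went against its label in 2 respects. Nervous system genes that were low in every single tissue were high in it, as given further on, although no nervous tissue is on the label. The ovary markers that led the ovary library were nearly absent from it: 7 such genes stood in the pool at 0 to 0.444% of their ovary level (ZP3 at 171 FPKM in ovary and 0.0924 in the pool). Markers of heart, liver, spleen, lung and kidney were present there. Summed FPKM ran from 292495 to 369254 per library. Depth is not stated. From the spacing of low values in short genes, a single fragment on a transcript of 1 kb was worth 0.0280 (adipose tissue) to 0.05 FPKM (heart), uncertain by a factor of 2, so values below about 0.1 rest on very few fragments.

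The 6 genes did not share a pattern: 4 were highest in heart, 1 in spleen and 1 in ovary. Of the 9244 genes that reached 10 FPKM in some tissue (35.7% of all genes), 7.93% were highest in heart, 19.7% in spleen and 24.3% in ovary. These backgrounds stand beside a choice made on the same values, so nothing is read from the counts. By a rule of at least 5-fold above every other tissue class (FPKM + 1, with the pair of skeletal muscles averaged, giving 8 classes), CCK and PCP4 passed and the other 4 did not, against 9.16% of genes at the same level. To give gaps between tissues a scale in the absence of replicates, the psoas and longissimus libraries were compared: over 9244 genes, 95% of the absolute differences on the log2(FPKM + 1) scale were under 1.05, or 2.07-fold. Smaller gaps are called indistinguishable here, although these are separate muscles and not replicates.

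**Figure D1:**
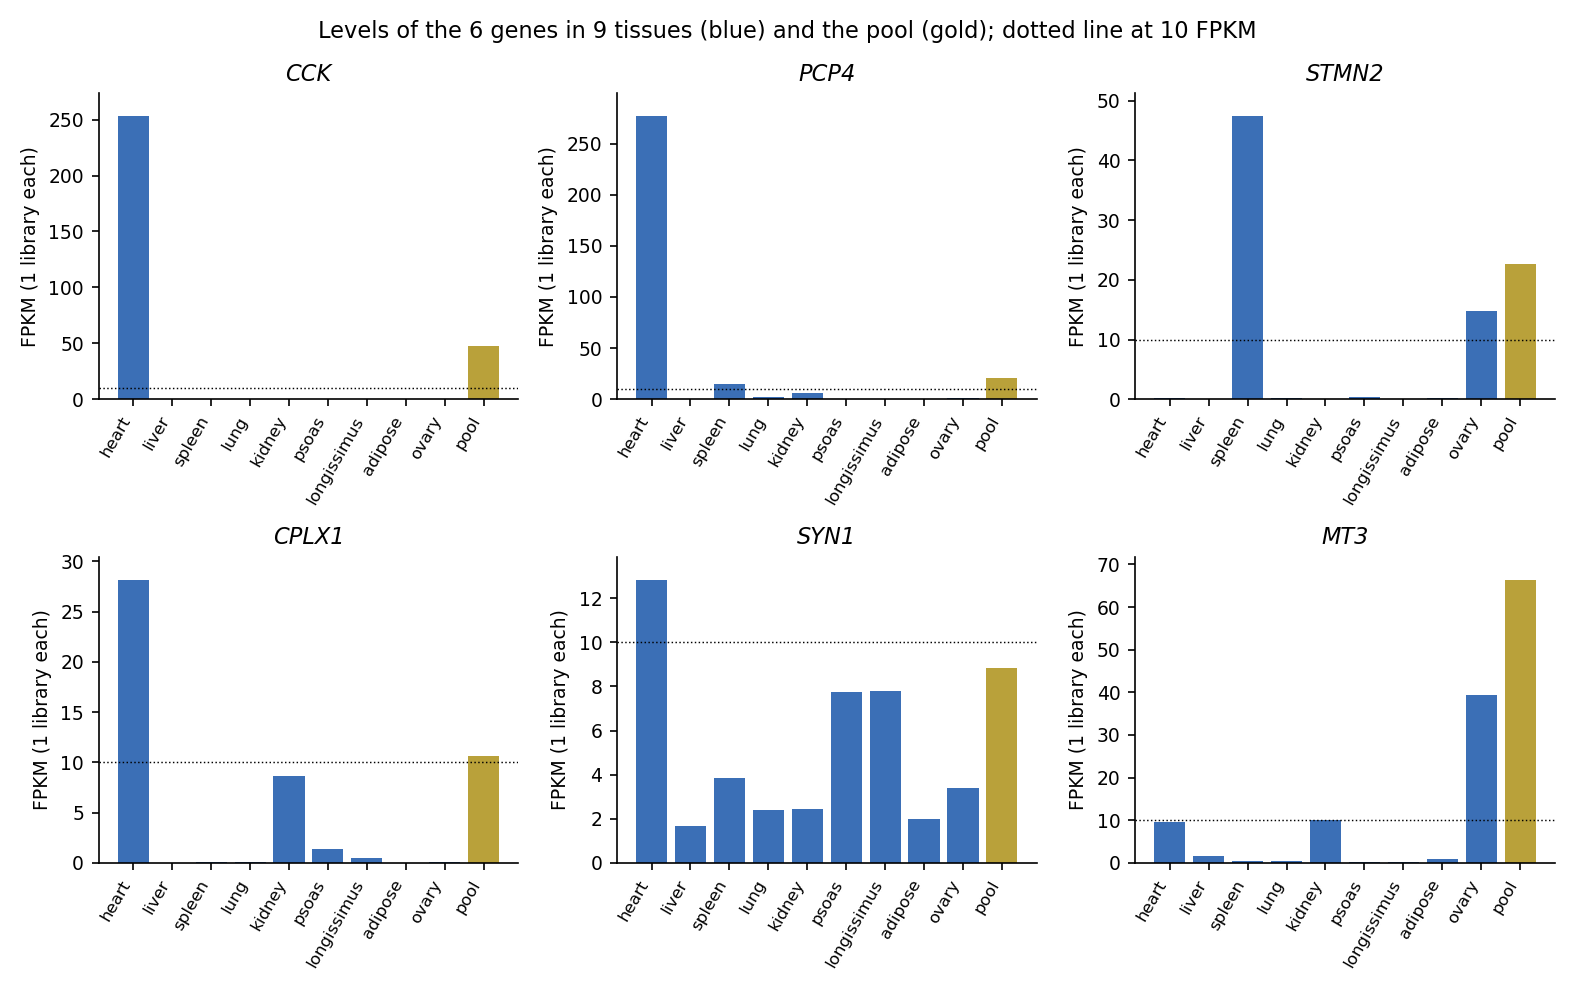
Bars give the level in FPKM (vertical axis, linear from 0, a separate scale for each gene) in the 9 single tissues (blue) and the pool (gold), with 1 library per bar and a dotted line at 10 FPKM. CCK stood at 253 in heart and below 0.2 in every other tissue, STMN2 at 47.4 in spleen and 14.8 in ovary, and MT3 was higher in the pool (66.4) than in any tissue.

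CCK encodes cholecystokinin, a peptide hormone of the gut and a neuropeptide of the brain. The gene (ENSSSCG00000011277) lies on the minus strand of chromosome 13, from 25940674 to 25945884 on Sscrofa11.1. Its level was 253 FPKM in heart, where it ranked 194 among all genes. It was 0.133 in spleen, 0.123 in lung, 0.113 in kidney, 0.106 in ovary, 0.0729 in adipose tissue and 0.0501 in longissimus dorsi, and it was listed at 0 in liver and psoas major. Heart thus held 99.8% of the summed level of the 9 tissues, and the ratio of heart to spleen was 224-fold on the FPKM + 1 scale. That ratio depends on the value added: it was 7.81 in log2 with 1, 10.09 with 0.1 and 5.65 with 5. The other 8 tissues were indistinguishable from each other. The closely related hormone gene GAST was at 0 in heart and reached at most 0.182 in any tissue.

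Other genes of peptide signalling did not follow CCK into the heart library. Of 32 matched genes of neuropeptide and granin precursors, 12 reached 1 FPKM in a tissue and 4 reached 10, against 60.4% and 35.7% of all genes. Of those 12, CCK and PDYN, the prodynorphin gene (3.09), were highest in heart. The median of the whole list in heart was 0, against 0.227 over all genes. The convertase genes PCSK1 and PCSK2, whose enzymes cut propeptides in neurons and endocrine cells, stood in heart at 0.0136 and 0, and the carboxypeptidase gene CPE at 2.02. PAM, which encodes the enzyme that amidates peptide ends, was at 111 in heart, its highest tissue, followed by 77.5 in adipose tissue. The receptor gene CCKAR reached 2.58 in kidney and 1.10 in lung, and CCKBR 1.78 in ovary. In heart these receptor genes were at 0.0188 and 0.

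Neuron markers were nearly absent from the heart library. Leaving out STMN2, the 14 matched peripheral neuron markers summed to 2.36 FPKM there, none reached 1, and 7 were at 0, among them SNAP25, SYT1, GAP43 and ELAVL4. Over all genes, 41.6% reached 1 in heart and 10097 of 25880 were at 0, so the count at 0 is near the background. Heart is not set apart by this, since the same sum ran from 0.513 (liver) to 4.52 (psoas major) elsewhere, except in ovary (109). The 10 neuroendocrine markers summed to 1.5 in heart, with the granin gene CHGA at 0.419. Of the conduction system markers, the pacemaker channel gene HCN4 was at 0.0275 and CNTN2 at 0.102 in heart, and the transcription factor gene TBX5 was highest at 20.2. In a bulk library, fewer cells of a type and less RNA per cell cannot be told apart. The nearest gene in the table, TRAK1, ends 5906 bp away on the opposite strand. It stood at 99.5 in heart and 49.6 in psoas, where CCK was at 0. In RefSeq the gene LOC110256272, which has no level of its own here, lies 563 bp from CCK.

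PCP4 encodes a small IQ-motif protein that alters how calmodulin binds calcium, and it is a marker of cerebellar Purkinje cells. The gene (ENSSSCG00000037110) lies on the plus strand of chromosome 13, from 203412479 to 203479215, with no other gene of the table within 20 kb. Its level was 277 FPKM in heart (rank 171), 14.5 in spleen, 6.40 in kidney, 2.35 in lung and 1.41 in ovary. In adipose tissue it was 0.395, in longissimus dorsi 0.241 and in psoas major 0.137, and it was listed at 0 in liver. Heart, spleen and kidney each differed from the next tissue by more than the scale set by the muscles. The gaps below spleen (1.06 in log2) and below kidney (1.15) passed its 1.05 only narrowly. From lung downwards neighbours in the order were indistinguishable. PCP4 was 18.0-fold higher in heart than in spleen (FPKM + 1, 4.17 in log2, or 4.85 with median-of-ratios scaling), while skeletal muscle, the other striated muscle, was near the floor.

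The relatives of PCP4 had other patterns. PCP4L1, its closest relative by name, was highest in spleen at 12.3 and stood at 2.05 in heart. The neuronal IQ-motif genes NRGN and GAP43 were both at 0 in heart and reached at most 2.93 (lung) and 0.301 (ovary). The calmodulin genes CALM2 and CALM3 stood in heart at 167 and 40.6 and reached 10 in all 9 tissues. Of the genes for calmodulin-dependent kinase II, CAMK2D was highest in heart (345, next 56.9 in psoas). CAMK2A, well known from the forebrain, was at 89.9 in longissimus, 82.5 in heart and 56.9 in psoas, but at most 1.83 elsewhere among the tissues. Over the 12 genes of the IQ-motif and calmodulin list, which includes PCP4 itself, the median was 28.4 in heart, 24.9 in longissimus dorsi, 23.3 in psoas major and 13.4 in spleen, against 0.227 over all genes in heart. PCP4 and CAMK2D were highest in heart.

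STMN2 encodes stathmin-2, a regulator of microtubules in growing axons. The gene (ENSSSCG00000006160) lies on the minus strand of chromosome 4, from 56952709 to 57006661. In RefSeq the gene LOC110260269 (56972440 to 56975549) lies inside it, an overlap of 3110 bp, and has no level of its own here. Whether its reads enter the STMN2 level was not tested. STMN2 was the only gene of the 6 that peaked in spleen, at 47.4 FPKM, followed by ovary at 14.8. All other tissues were far lower: 0.305 in psoas major, 0.183 in adipose tissue, 0.173 in heart, 0.166 in lung and 0.0672 in longissimus dorsi, with 0 in liver and kidney. Spleen was 3.07-fold above ovary (FPKM + 1), both gaps below spleen and below ovary exceeded the scale set by the muscles, and the other 7 tissues were indistinguishable.

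Few other genes of the peripheral neuron list were detected in the spleen library. Of the 14 other neuron markers only SNAP25 reached 1 FPKM in spleen (1.44), and 8 were at 0. Over all genes, 46.4% reached 1 in spleen and 9105 of 25880 were at 0. TUBB3, the neuronal tubulin, stood at 0.360, the axon growth gene GAP43 at 0.0406 and the neurofilament gene NEFL at 0. TH and DBH, the enzymes of noradrenaline synthesis, were also at 0 in spleen. They do not set spleen apart, since TH was at most 0.0738 in any library and DBH was at 0 in all. Of the neuropeptide and granin genes at 1 FPKM in a tissue, 5 of 12 were highest in spleen, among them TAC1 (2.98) and NPY (1.54). So were 4 of 11 complexin and SNARE genes, 2 of 11 synapsin and vesicle genes and 2 of 10 stathmin and cytoskeleton genes. These included VAMP1 (6.52), SLC18A1 (6.40), MAP2 (3.16) and SYP (2.47). Over all genes, 2963 of the 15637 at that level were highest in spleen. The stathmin family was divided. STMN1, linked to dividing cells, was highest in ovary (72.2) with spleen next (31.1), STMN3 stayed between 0.207 and 1.63 in the 9 tissues, and STMN4 reached 2.48 in adipose tissue. All 8 smooth muscle markers exceeded 1 in spleen (46.4% of all genes reached 1 there). They also did so in lung, kidney, both skeletal muscles, adipose tissue and ovary. Of the 8, 6 were highest in spleen, with TAGLN at 488, against 19.7% of genes that reached 10 FPKM in a tissue. In lung, where STMN2 was at 0.166, TAGLN was at 181. What part such cells play in the STMN2 level was not tested.

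In ovary, where STMN2 was at 14.8, UCHL1, a ubiquitin hydrolase of neurons and germ cells, was at 95.9. ELAVL4 stood at 5.02, ISL1 at 2.29, HAND2 at 1.37, SYT1 at 1.30 and PRPH at 1.01, while SNAP25 was at 0 and TUBB3 at 0.383. Thus 6 of the 14 other neuron markers reached 1 FPKM in ovary, where 50.9% of all genes did. The count was 1 in spleen (46.4% of all genes) and 0 in heart (41.6%) and in kidney (46.0%). Of 10 neuroendocrine markers, CHGA alone reached 1 in ovary, at 157.

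CPLX1 encodes complexin-1, which binds assembled SNARE complexes and times vesicle fusion. The gene (ENSSSCG00000037527) lies on the minus strand of chromosome 8, from 197877 to 232036. Its level was 28.2 FPKM in heart and 8.62 in kidney, then 1.33 in psoas major and 0.520 in longissimus dorsi. The remaining tissues were at 0.0994 (spleen), 0.0507 (ovary), 0.0254 (lung) and 0 (liver and adipose tissue). Heart was 3.03-fold above kidney, and kidney stood above psoas by 2.04 on the log2(FPKM + 1) scale, both more than the scale set by the muscles. Below kidney the neighbours in the order were indistinguishable. The neighbouring genes GAK and PCGF3 did not overlap CPLX1 and stood in liver, where CPLX1 was at 0, at 6.68 and 4.57. In RefSeq the gene LOC110262027 overlaps CPLX1 by 28 bp.

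CPLX1 was the only complexin gene with a level above 1 FPKM in any single tissue. CPLX2, CPLX3 and CPLX4 reached at most 0.0182, 0.106 and 0.270, too near the floor to name a highest tissue. The neuronal SNARE genes were low where CPLX1 was high. SNAP25 was at 0 in heart and kidney, and STX1A stood at 0.398 and 0.485. VAMP2, a vesicle SNARE with wide use, was at 17.0 and 17.7. Of the 18 matched genes of the complexin and SNARE list, 11 reached 1 in a tissue, a share near the 60.4% of all genes, and 2 of these, CPLX1 and the active zone gene RIMS1 (3.51), were highest in heart. The list's median was 0.203 in heart and 0.224 in kidney, against 0.227 and 0.518 over all genes.

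SYN1 encodes synapsin I, which tethers synaptic vesicles to the cytoskeleton. The gene (ENSSSCG00000012276) lies on the minus strand of chromosome X, from 42088832 to 42142286. It had the lowest peak of the 6 and the broadest pattern. Its level was 12.8 FPKM in heart, 7.81 in longissimus dorsi and 7.75 in psoas major, then 3.83 in spleen, 3.41 in ovary, 2.45 in kidney, 2.39 in lung, 1.98 in adipose tissue and 1.68 in liver. The striated muscles were thus the 3 highest tissues, but no gap between neighbours in the order exceeded the scale set by the muscle pair. Heart was 1.58-fold above skeletal muscle (FPKM + 1). SYN1 was the only gene of the 6 detected at 1 FPKM in all 9 tissues. SYN2 was instead highest in ovary (4.70) and stood at 0.130 in heart, and SYN3 reached at most 0.517 (lung).

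The value of SYN1 can hold reads of other genes. Its model overlaps the 3′ end of ARAF, a kinase gene on the plus strand, by 1421 bp, and the whole of TIMP1, a protease inhibitor gene on the plus strand (42102211 to 42106415). Whether the counting used strand is not given in the sources used here, and without strand the reads of such partners cannot be told apart. In RefSeq the SYN1 model starts at 42090245, which leaves out nearly all of the overlap with ARAF. The 3 tissues highest in ARAF were those highest in SYN1 (68.3 in longissimus, 57.6 in heart and 56.2 in psoas). Across the 9 tissues, Pearson's r of log2(FPKM + 1) was 0.85 with ARAF and 0.20 with TIMP1. SYN1 was 22.3% of the ARAF level in heart, 13.8% in psoas and 6.33% in lung, so the share was not constant. TIMP1 was highest in ovary (85.3), where SYN1 was at 3.41. The part of the ARAF overlap in the SYN1 level was not tested.

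**Figure D2:**
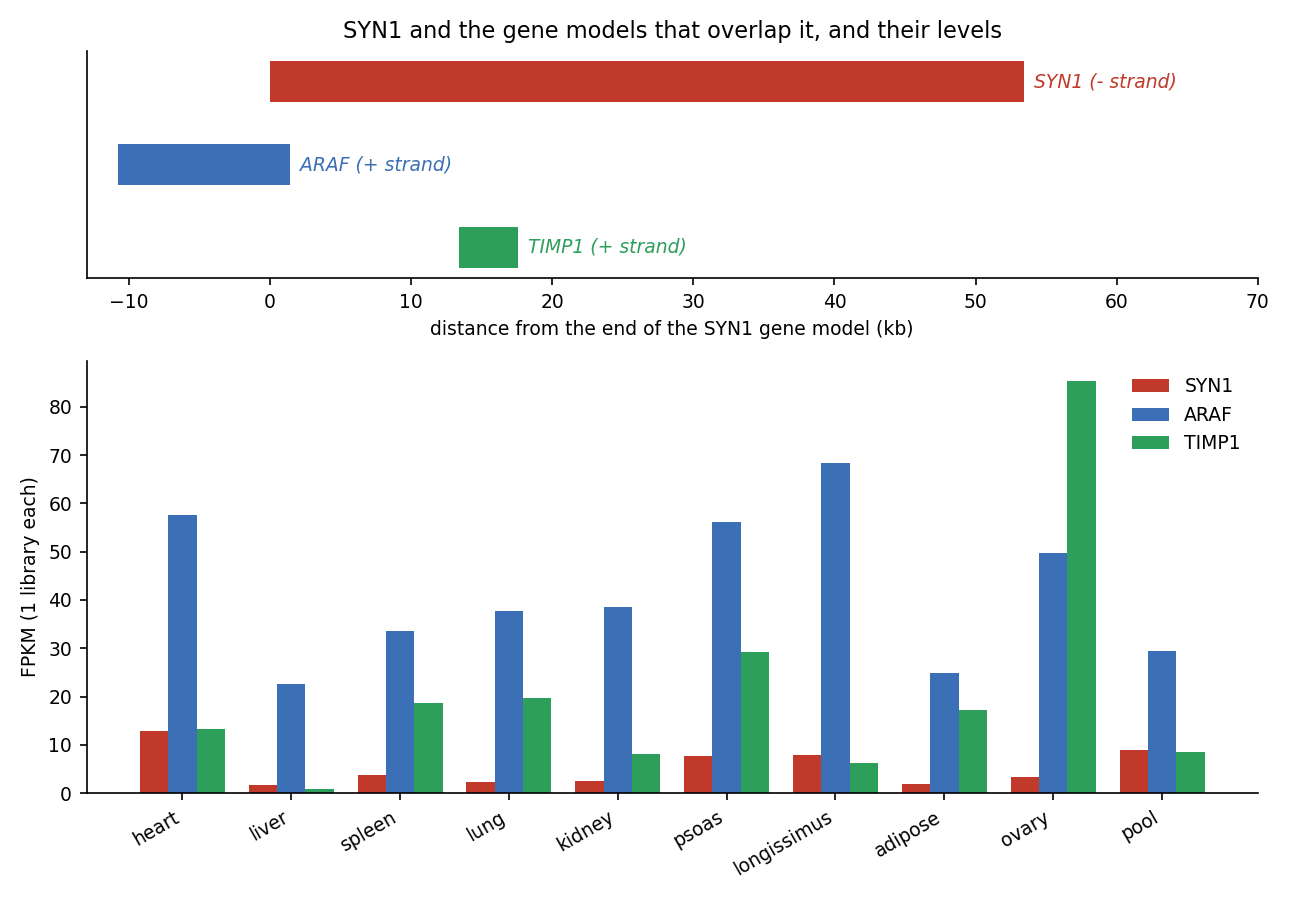
Upper panel: bars show the SYN1, ARAF and TIMP1 gene models against the distance in kb from the end of the SYN1 model. Lower panel: bars give their levels in FPKM in each of the 10 libraries (1 each). ARAF overlaps SYN1 by 1421 bp and is highest in heart and both skeletal muscles, as SYN1 is among the single tissues, but in the pool SYN1 reaches 30.1% of the ARAF level.

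Of 21 matched synapsin and vesicle genes, 11 reached 1 FPKM in a tissue and 3 reached 10, against 60.4% and 35.7% of all genes. The 3 were SYN1, SYNGR1 (21.6 in kidney) and SNCG, the gamma-synuclein gene (25.6 in adipose tissue). The synaptophysin gene SYP reached 2.47 in spleen and was at 0.455 in heart, and SV2A, a protein of nearly all synaptic vesicles, reached only 0.164. RAB3A, a vesicle GTPase gene, was highest in psoas at 7.89.

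MT3 encodes metallothionein-3, a zinc and copper binding protein first known as a growth inhibitory factor of the brain. The gene (ENSSSCG00000024305) lies on the plus strand of chromosome 6, from 18634261 to 18636131. Its level was 39.3 FPKM in ovary, 9.93 in kidney and 9.55 in heart. It was 1.58 in liver, 0.879 in adipose tissue, 0.440 in spleen, 0.356 in lung, 0.129 in longissimus dorsi and 0.103 in psoas major. Ovary was 3.69-fold above kidney (FPKM + 1, 1.88 in log2, or 1.06 with median-of-ratios scaling). Kidney and heart were indistinguishable, and heart exceeded liver by 2.03 on the log2 scale.

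The neighbouring metallothionein genes had another order. ENSSSCG00000030300, named MT1X by its Ensembl identifier and MT-2B in RefSeq, lies 9021 bp from MT3 and was highest in liver (298), with 58.2 in kidney, 21.0 in ovary and 2.52 in heart. ENSSSCG00000024911, a model that covers the RefSeq gene MT1D, was also highest in liver (122) and at 0 in heart. Across the 9 tissues, r with MT3 was -0.04 and -0.01. These genes are similar in sequence, so the authors' counting could divide reads between them and the levels are uncertain to that extent. MT4 reached 0.998 in heart. SLC30A3, a zinc transporter of synaptic vesicles, was highest in ovary too (27.6), with 20.5 in lung and 9.70 in kidney, but at 0.176 in heart. MTF1, the metal-sensing regulator of metallothionein genes, was also highest in ovary (6.89).

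The 6 genes were also compared with each other. Of the 15 pairs, 6 had a Pearson's r above 0.5 across the 9 tissues and 3 were below 0. No share over all gene pairs was taken, and 4 of the 6 genes were highest in heart, so nothing is read from these counts. The highest values were 0.87 for CCK with PCP4, 0.80 for CCK with CPLX1 and 0.78 for PCP4 with CPLX1. These 9 points share their libraries. The lowest was -0.32, for STMN2 with CPLX1.

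Among 8622 named genes at 10 FPKM or more in a tissue, those most like CCK were TNNI3K, LNP1, SERPINB2, TMEM179 and TBX20, with r of 0.998 to 1.00 to 3 digits. All of these were highest in heart. CCK was below 0.2 in every other tissue, so this r rests almost wholly on the heart library. TNNI3K is a kinase gene of cardiac muscle and TBX20 a cardiac transcription factor gene. Most like PCP4 were ADGRB1, LIX1, B3GALT2, NKX2-5 and SLC8A1 (0.935 to 0.954), all highest in heart, with SLC8A1 encoding the sodium-calcium exchanger. Most like STMN2 were COCH, CR1, TNFAIP8, PPCDC and BIRC5 (0.938 to 0.972), all highest in spleen, with COCH known from the inner ear. ATPAF2, TMEM52B, TRAPPC2, TMEM160 and COX7A2 were nearest to CPLX1 (0.912 to 0.933), and 4 of the 5 peaked in heart. DNAJB5, ALPK2, SMDT1, HSPB7 and ANK1, all highest in heart, were nearest to SYN1 (0.967 to 0.984). For MT3 they were ALDH1A2, PPME1, KCNJ5, DNER and PDGFC (0.891 to 0.919), of which 4 were highest in ovary and KCNJ5 in heart. A shared highest tissue is largely built into such a choice, so nothing is read from it. These names depend on the measure: 4 of the 30 were chosen again with Spearman's rho, and 16 with a pseudocount of 0.1. With Spearman's rho, 0 of the 5 names were kept for each of CCK, STMN2 and CPLX1.

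The 6 genes are not the only nerve-linked genes at such levels. Of 110 other matched genes in the 7 lists of related genes, 30 also reached 10 FPKM in a tissue, against 35.7% of all genes, with 10 of them highest in ovary, 5 in spleen and 2 in heart. Beside those named above they included SYT2 (28.1 in ovary), a calcium sensor of vesicles, PENK (20.3 in adipose tissue), the proenkephalin gene, SCG5 (17.4 in ovary), a chaperone of PCSK2, MAPT (16.6 in ovary), the tau gene, and PCSK1N (14.01 in ovary). At the threshold itself, SYN1 (12.8) was the lowest of the 6. The listed genes nearest to 10 FPKM were SLC30A1 above it (10.2 in liver), and NPPC (8.23 in spleen) and RAB3A (7.89) below it.

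In the pool all 6 genes were detected: MT3 at 66.4 FPKM, CCK at 47.2, STMN2 at 22.6, PCP4 at 21.1, CPLX1 at 10.7 and SYN1 at 8.84. MT3 alone was above every tissue that the label lists, at 1.69 times its level in ovary, against 0.519% of genes that reached 10 FPKM in a tissue. A mixture of the labelled tissues would lie between their values if all libraries were on the same scale. The ovary markers were at or near 0 in the pool, and the other tissues had at most 9.93 FPKM of MT3.

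The pool was then compared with a fitted mixture of the 8 tissue classes (non-negative least squares). The fit gave 46.3% liver, 18.2% lung, 11.4% spleen, 6.55% skeletal muscle, 6.12% kidney, 5.53% heart, 4.37% ovary and 1.51% adipose tissue. The mixture gave 13.7 FPKM for CCK against the 47.2 measured, a ratio of 3.44. For STMN2 it gave 5.96 (ratio 3.79), for CPLX1 2.12 (5.04), for SYN1 3.13 (2.83) and for MT3 3.63 (18.3). PCP4 was near its mixture, at 17.4 and a ratio of 1.21. Thus 5 of the 6 lay at least 2-fold above the fit on the FPKM + 1 scale, against 1.27% of genes at the same level. With a pseudocount of 5 SYN1 fell below that line, with 0.77 on the log2 scale in place of 1.25. CPLX1 was at 1.14 and MT3 at 3.05 (3.86 before) under that setting, both still above the line. With a fit on absolute values MT3 was at 4.47. CCK in the pool was 18.7% of its heart level and PCP4 7.62%, while 8 heart markers ran from 3.20% (MYBPC3) to 15.8% (GATA4) with a median of 5.84%. STMN2 was 47.7% of its spleen level, and 7 spleen markers ran from 7.91% (TLX1) to 47.8% (SLC40A1), with a median of 16.7%. SLC40A1 was also at 199 in liver, and the next of these markers was SPIC at 34.2%.

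**Figure D3:**
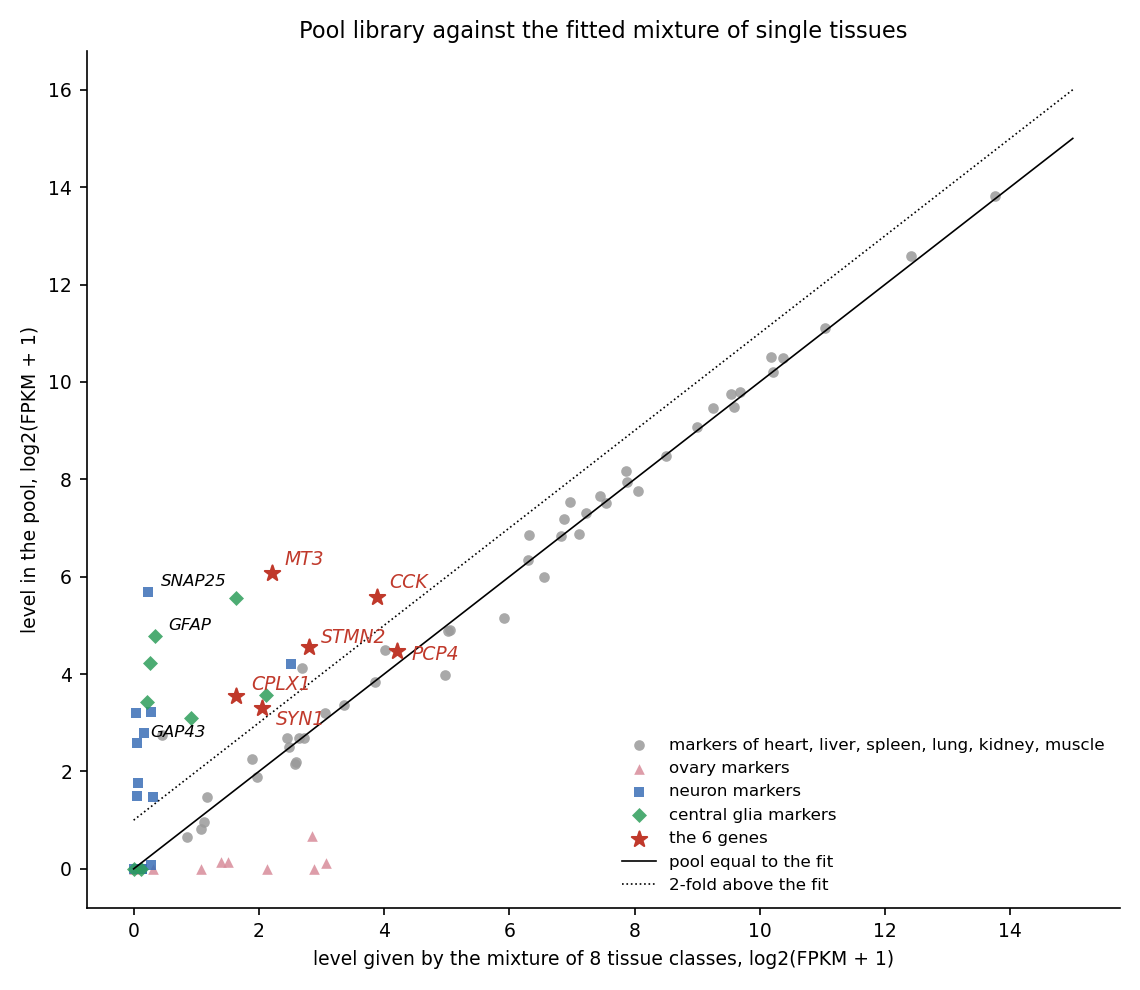
Each point is a gene, with the level given by the fitted mixture of tissues on the horizontal axis and the level in the pool on the vertical axis, both log2(FPKM + 1). The solid line marks equality and the dotted line 2-fold. MT3, CPLX1, STMN2, CCK and SYN1 lie above the dotted line and PCP4 below it, while the matched ovary markers that were detected in ovary lie below the solid line.

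Other nervous system genes were also high in the pool and low in every single tissue. SNAP25 stood at 50.3 in the pool and at most 1.44 in a tissue (spleen), STMN4 at 14.7 against 2.48, TUBB3 at 8.38 against 0.459, NEFL at 8.19 against 0.0619 and GAP43 at 5.0 against 0.301. Counts against the fit were taken over genes at 1 FPKM or more in a single tissue, so that a high level in the pool did not admit a gene. Of 8 such genes of the peripheral neuron list, STMN2 included, 5 were at least 2-fold above the fit, against 1.97% of the 15637 genes at that level.

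The lists around the 6 genes differed in this, and some genes stand in more than 1 list. The count was 7 of 10 for stathmins and neuronal cytoskeleton, with a median departure of 1.41 in log2 (all genes -0.03). It was 6 of 11 for synapsins and vesicle genes (median 1.25) and 5 of 11 for complexins and SNARE genes (0.96). It was lower for the IQ-motif and calmodulin genes (3 of 11, 0.66), propeptide processing and receptors (2 of 9, 0.17) and neuropeptides and granins (2 of 12, 0.10). Of the metallothionein and zinc genes, MT3 alone passed (1 of 6, -0.05).

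Glial genes of the central nervous system were high in the pool as well. Of 8 such markers, 3 reached 1 FPKM in a tissue (AQP4, SLC1A2 and SLC1A3), and these 3 were at least 2-fold above the fit. GFAP, of astrocytes, stood at 26.5 in the pool and at most 0.740 in a tissue. SLC1A3 was at 46.5 against 16.03, and the myelin genes MAG and MOG were at 17.7 and 9.69 against 0.876 and 0.499. MBP, shared by central and peripheral myelin, stood at 142 in the pool against at most 14.5. OLIG1 and OLIG2 were at 0 in the pool, and none of the 6 detected noradrenergic and cholinergic genes was above the fit by 2-fold. No nervous tissue is on the pool's label. The part that the source of these transcripts has in the levels of CCK, STMN2, CPLX1, SYN1 and MT3 in the pool was not tested.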

How the data were processed

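Per the labels, TRIzol was used for extraction and an Illumina TruSeq RNA kit for the libraries. TopHat2 2.1.0, StringTie 1.2.2 and Sscrofa11.1 are named in the submitters' processing notes. For annotation release, strandedness and filters, the sources used here give nothing. The authors deposited 1 value per gene and library, read here as FPKM. The header names no unit, and the reading rests on values that are not whole, on similar sums per library and on StringTie. No counts were used and no test was run.

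Symbols came from Ensembl identifiers (14857 genes) or, failing that, from the RefSeq gene that overlapped reciprocally by 0.5 or more (1714 genes). Levels were compared as log2(FPKM + 1). Step depths used genes of 400 to 1500 bp (tolerance 1%). The mixture fit used genes at 1 FPKM or more in a library, each divided by its mean over libraries plus 1. Genes named were the members, listed genes at 1 FPKM or more in a library (with absent markers), neighbours that could share reads, and the 5 genes most like each member. Members and lists were chosen with earlier results of these data known. Alternatives varied the pseudocount, thresholds, scaling, low-value filters and the fit itself. Class calls and the mixture fit were checked on simulated data. Software was Python 3.11.15 with scipy 1.17.1, numpy 2.4.6, matplotlib 3.10.9 and pandas 2.3.3.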

Additional observations from a re-analysis of the deposited data

How the results depend on the processing

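The highest tissue of each of the 6 genes was the same under the pseudocounts, the scalings and the separate muscle classes tried. Of 36 such ratios to the next class, 9 moved by more than 0.36 on the log2 scale. That is the robust SD between the muscles over the same 9244 genes, and it stood in for a replicate SD. The largest were those of CCK, from 7.81 to 10.09 with a pseudocount of 0.1 and to 5.65 with 5. MT3 went from 1.88 to 1.06 and SYN1 from 0.66 to 0.18 with median-of-ratios scaling, whose factors ran from -0.93 (longissimus) to 0.68 (ovary). A fold threshold of 3 in place of 5 called 5 of the 6 genes. For the pool, 8 of 48 departures from the fit moved by more than that SD, and the count of 5 genes stayed within 1.5 times. A fit without the listed genes was added after the data were seen, and so was the limit of list counts in the pool to genes at 1 FPKM in a single tissue. Detection at 5 FPKM left 43 listed genes in place of 70. Without the filter the median log2 of their highest level was 1.44 in place of 2.51, since genes at or near 0 then enter. The genes most like the 6 were shared for 4 of 30 with Spearman's rho, for 16 with a pseudocount of 0.1 and for 16 with a filter at 1 FPKM. No paired analysis was possible because each tissue has 1 library. Values under about 0.1 FPKM are limited by depth.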

Other observations

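Genes of the noradrenaline and other amine pathways were highest in different organs. TH was at most 0.0738 FPKM in any library and DBH was listed at 0 in all 10. DDC, which makes dopamine from its precursor and acts on other aromatic amino acids, was at 213 FPKM in kidney and 33.3 in liver. SLC6A2, the noradrenaline transporter gene, was at 16.8 in lung, 2.07 in adipose tissue and 3.42 in the pool, with at most 0.0684 in the other tissues. SLC18A2, the vesicular amine transporter gene, was at 4.998 in ovary and 2.16 in lung, and PNMT, which makes adrenaline, at 1.82 in heart. The nicotinic receptor genes CHRNA3 and CHRNB4, of autonomic ganglia, were highest in kidney at 2.73 and 2.14.

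Schwann cell genes were detected in many tissues. PMP22, a protein of peripheral myelin, was highest in adipose tissue (39.9 FPKM). SOX10, a regulator of Schwann cells, ran from 1.02 to 4.07 over the 9 tissues.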
